A study of Mus musculus with 30 samples.

Results

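The 38 genes described here are interferon-stimulated genes, the transcripts that cells switch on when an interferon reaches its receptor. They were listed by name as known members of the interferon response. The rule used no measured value, but earlier results of these data were known when the list was chosen. The 38 genes were looked up among the 49671 genes of one table and the 56386 rows of the other. All 38 were found in both tables, and the test took those averaging 10 or more counts a heart. That filter kept 30 of the 38 among 11985 genes tested in the first study and 34 of the 38 among 12274 in the second, and the 30 were all among the 34.

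RNA from the left ventricle of 30 male C57BL6J mice was sequenced in a pair of separate studies. In the peptide study, 7 mice were given Aβ42, the 42-residue amyloid beta peptide in its recombinant human form, and 7 were given ScrAβ42, a peptide with the same residues in scrambled order, by daily intraperitoneal injection for 4 weeks. The labels give an age of 12 weeks, and the methods give a range up to that age for the first injection. In the antibody study, 8 mice received 3D6, an antibody that binds and neutralises Aβ, and 8 received an IgG2a control antibody, once weekly. The daily peptide dose is 1 mg in the sample labels and 1 µg in the study's methods. The series description has the antibody mice also given Aβ42, whereas the methods have them fed a high-fat diet throughout, and the difference between these accounts could not be settled here. No group received interferon and no group was left untreated, so every fold change below is relative to ScrAβ42 or to the control antibody. Each library came from 1 mouse and no batch is labelled.

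Type I interferons bind a receptor on almost every cell, and its kinases activate STAT2, which acts with IRF9 in the complex ISGF3. This complex binds a short DNA word, the interferon-stimulated response element (ISRE), in front of its target genes, whereas type II interferon acts mostly at another word, the gamma-activated sequence (GAS). The products trim viral RNA, block translation, hold back budding virus and load antigen, and some, such as USP18, switch the response off again. In heart muscle a low level of these transcripts is present without infection, and they rise in viral myocarditis and after infarction.

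The response element is a sequence that many, but not all, interferon-stimulated genes hold. The members were listed by name and not by sequence. As known interferon-response genes they were likely to hold the element, so its frequency among them is a description only. Promoter stretches of some members that hold it are shown first. RefSeq promoter windows, each running from 250 bases before to 50 bases after the transcription start on build GRCm38.p6, matched 29 of the 38 members. The core of the ISRE, spelled GAAA, then 2 bases of any kind, then GAAA, was searched on both strands, and 17 of the 29 members (58.6%) held it, against 3.99% of all 27025 genes with such windows. Counted by window, it was in 17 of 35 member windows and in 3.44% of all 32851. The letters TTCNNNGAA, the GAS word, were present in 9 of the 29, against 9.55% of genes. The words can overlap, and they shared bases in 1 member window, that of Bst2. In the stretches printed here, read 5′ to 3′ on the strand of the gene, capitals mark the ISRE core, which appears as TTTC blocks where it lies on the opposite strand.
Isg15: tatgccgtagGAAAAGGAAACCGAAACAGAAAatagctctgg
Bst2: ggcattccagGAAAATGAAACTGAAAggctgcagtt
Ifit3: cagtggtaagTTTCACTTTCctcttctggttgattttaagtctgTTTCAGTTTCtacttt
Ifit3b: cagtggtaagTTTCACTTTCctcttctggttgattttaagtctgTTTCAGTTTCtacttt
Stat2: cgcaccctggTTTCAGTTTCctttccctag
Gbp2: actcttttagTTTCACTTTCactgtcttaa
Rsad2: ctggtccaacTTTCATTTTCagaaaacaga

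The Isg15 stretch lies at chr4:156200865-156200906 on the minus strand and holds 3 overlapping copies of the core, the first 78 bases before the transcription start. The Bst2 stretch, at chr8:71537577-71537612 on the minus strand, holds 2 overlapping copies, the first 130 bases before the start. Ifit3 and Ifit3b are neighbouring near-copies on chromosome 19, and their stretches, at chr19:34583363-34583422 and chr19:34607759-34607818 on the plus strand, were identical over all 60 bases. The Stat2, Gbp2 and Rsad2 stretches, each with 1 copy, lie at chr10:128270266-128270295 on the plus strand, chr3:142620594-142620623 on the plus strand and chr12:26456553-26456582 on the minus strand. The windows of Cmpk2, Irf7 and Irf9 held neither word, and that of Isg20 held the GAS word only. This says no more than that these letters are not in those windows. Usp18 had no matched window. The median log2 fold change of matched members was -0.09 with the core and -0.07 without it for Aβ42, and -0.18 and -0.20 for 3D6, values that were not tested against each other.

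The members were expressed at a low level in the hearts of every group. Library totals ran from 4478991 to 6015767 counts in the peptide study and from 6397192 to 8310478 in the antibody study, and the mean of a tested member ran from 12.0 counts (Usp18) to 309 (Trim25) in the former and from 12.4 (Oasl1) to 172 (Parp14) in the latter, so the values of single hearts carry visible counting error. Levels are given as CPM, counts scaled to a common library size, with TMM factors, which assume that most genes do not differ between hearts. Per kilobase of exon, the most abundant members in the peptide study were Ifi27, a small protein of mitochondrial and nuclear membranes, at 16.7 CPM per kb, Bst2 (tetherin, which holds budding virus on the cell surface) at 12.5 and Isg20, a 3′ exonuclease that degrades RNA, at 12.0. In the antibody study Bst2 led at 13.1 CPM per kb, followed by Ifi27 at 8.20 and Ifi35 at 5.60. The lowest member in both was Oas3, at 0.0692 and 0.0271 CPM per kb. Oas3, Mx1 and Mx2 (GTPases that trap viral nucleocapsids) and Zbp1, a sensor of left-handed nucleic acids, were too low to test in either study. Ifit3b, Oas1a, Oasl1 and Dhx58 were too low in the peptide study only.

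The ligands of the pathway were at the floor. Of 21 interferon genes, all were at 0 counts in the 14 hearts of the peptide study, and 19 were at 0 in the 16 hearts of the antibody study, the exceptions being Ifnk and Ifnz at no more than 1 count in any heart. The receptors and their kinases and STATs were present, with 15 of 16 tested in each study. Heart muscle genes were abundant: the summed level of Myh6, Tnnt2, Ryr2, Myl2 and Actc1 ran from 37330 to 74980 CPM in the peptide study and from 40650 to 49690 CPM in the antibody study. Atrial genes, which a ventricular sample should lack, summed to 12.4 to 8417 CPM (median 1158) with Aβ42 and 3.82 to 3665 CPM (median 10.5) with ScrAβ42, and all 5 had a positive log2 fold change (median 2.31). Of these only Bmp10 had an unadjusted p under 0.05 in edgeR, at a log2 fold change of 6.81 (unadjusted p = 0.002425). With 3D6 they summed to 1.05 to 668 CPM (median 98.5) and with the control antibody to 0.821 to 2776 CPM (median 2.88). T and NK cell markers summed to at most 2.48 CPM and B cell markers to at most 3.70 CPM in any heart. In such whole-tissue samples, fewer cells of a type and less RNA per cell cannot be told apart.

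The first question was whether Aβ42 altered these genes relative to ScrAβ42. No member passed an adjusted p of 0.05 in edgeR's quasi-likelihood test, and the smallest adjusted p among the 30 was 0.708, where 0.0% of all 11985 genes passed. DESeq2 called 12 genes, none of them a member, among the 24 members for which it gave an adjusted p. At an unadjusted p under 0.05, 2 members (6.67%) were lower with Aβ42, Usp18 and Cmpk2, against 2.92% of all genes, and 0 were higher, against 3.59% of all genes. Of the 30 members, 19 (63.3%) had a negative log2 fold change, against 49.5% of all genes, and their median was -0.08 beside 0.0015 over all genes. The groups overlapped for every member tested, while 0.0918% of all genes had groups that did not overlap. With the atrial score as a covariate, Usp18 (unadjusted p = 0.0815 in edgeR) and Cmpk2 (unadjusted p = 0.153) were above that limit and Isg15, Isg20, Irf7 and Bst2 were under it, all 4 lower, against 4.83% of all genes.

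In the group of ubiquitin-like modification and feedback, Usp18, the protease that removes ISG15 from proteins and silences the interferon receptor, lies at chr6:121245906-121270917. It ran from 1.37 to 2.48 CPM (median 1.79) across the 7 Aβ42 hearts and from 2.15 to 3.54 CPM (median 2.52) across the 7 ScrAβ42 hearts. All 7 Aβ42 hearts were below the ScrAβ42 median, although the ranges overlapped. The log2 fold change was -0.48 (SE 0.19, unadjusted p = 0.0239, adjusted p = 0.708 in edgeR), and a gene model on the opposite strand, Gm44148, overlaps it. Isg15, the ubiquitin-like protein itself, ran from 1.38 to 5.16 CPM (median 2.33) with Aβ42 and from 1.42 to 9.88 CPM (median 3.77) with ScrAβ42. Only 2 hearts, ScrAbeta42_3448 and ScrAbeta42_3449 by their labels, exceeded the highest Aβ42 heart, and the log2 fold change of -0.76 (SE 0.40) had an unadjusted p of 0.0756 and an adjusted p of 0.775 in edgeR. Trim25, a ligase that attaches ISG15 and ubiquitin, had a log2 fold change of 0.03 (SE 0.10).

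In the IFIT family, whose proteins bind foreign RNA ends and stall its translation, 2 of 3 tested members were lower and 1 was higher. Ifit3 ran from 1.98 to 8.41 CPM (median 3.77) with Aβ42 and from 2.39 to 6.37 CPM (median 3.28) with ScrAβ42, so both groups covered nearly the same range. Ifit1 and Ifit2 had log2 fold changes of -0.17 and -0.07. Of the 2'-5' oligoadenylate synthetases and RNA-decay genes, 4 were tested, 2 lower and 2 higher. Isg20 had the lowest log2 fold change of any member, -1.21 (SE 0.61, unadjusted p = 0.0648, adjusted p = 0.764 in edgeR). It ran from 3.36 to 34.5 CPM (median 10.4) with Aβ42 and from 5.97 to 92.5 CPM (median 25.9) with ScrAβ42, a wider ratio of highest to lowest heart than in any other member. Eif2ak2, the kinase PKR that shuts down translation on double-stranded RNA, was among the 3 highest, at 8.62 to 13.1 CPM (median 11.5) against 6.39 to 12.9 (median 8.84). Its log2 fold change was 0.30 (SE 0.15, unadjusted p = 0.0718, adjusted p = 0.775 in edgeR), and 1 of the 7 Aβ42 hearts was below the ScrAβ42 median. Oasl2, a relative of the synthetases, ran from 8.05 to 21.2 CPM (median 9.88) with Aβ42 and from 6.78 to 19.9 (median 10.3) with ScrAβ42, a log2 fold change of 0.20 (SE 0.29).

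The cytosolic RNA sensors Ifih1 (MDA5) and Ddx58 (RIG-I) had log2 fold changes of 0.07 (SE 0.16) and 0.08 (SE 0.10). Among the transcription factors, Irf7, the amplifier of the type I response, ran from 6.56 to 11.5 CPM (median 8.12) with Aβ42 and from 6.97 to 13.9 CPM (median 9.49) with ScrAβ42. Stat2 ran from 16.7 to 24 CPM (median 21.1) and from 20.1 to 25.8 CPM (median 21.9). Irf9, the DNA-binding part of ISGF3, ran from 12.9 to 20.5 CPM (median 17.6) and from 12.9 to 19.4 CPM (median 18). The groups lay over each other for all 3, and their log2 fold changes were -0.22, -0.11 and 0.03. All 5 tested GTPases, which attack the membranes around intracellular microbes, had negative values, but the lowest was only -0.17, and Gbp2 ran from 10.5 to 19.9 CPM (median 15.5) against 12.9 to 21.2 (median 16.5).

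Among the other effectors, Cmpk2, a mitochondrial nucleotide kinase, ran from 4.87 to 8.90 CPM (median 6.95) with Aβ42 and from 6.97 to 10.6 CPM (median 8.52) with ScrAβ42. Its log2 fold change was -0.36 (SE 0.16, unadjusted p = 0.0359, adjusted p = 0.739 in edgeR). Rsad2 (viperin), which makes a chain-terminating nucleotide and is the neighbour of Cmpk2 on chromosome 12, ran from 11.9 to 43.6 CPM (median 25.9) and from 17.7 to 69.2 CPM (median 28.8), a log2 fold change of -0.49 (SE 0.31, unadjusted p = 0.137). Bst2 was at 8.99 to 12.6 CPM (median 9.66) and 9.08 to 14.7 CPM (median 11.8), a log2 fold change of -0.22 (SE 0.12). Ifi27 had the highest log2 fold change, 0.56 (SE 0.30, unadjusted p = 0.0816, adjusted p = 0.780 in edgeR). It ran from 16.9 to 75.4 CPM (median 21.6) with Aβ42 and from 16 to 27.6 CPM (median 17.9) with ScrAβ42, and a single Aβ42 heart, Abeta42_3457, held the value of 75.4 while the next was 26.9.

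**Figure D1:**
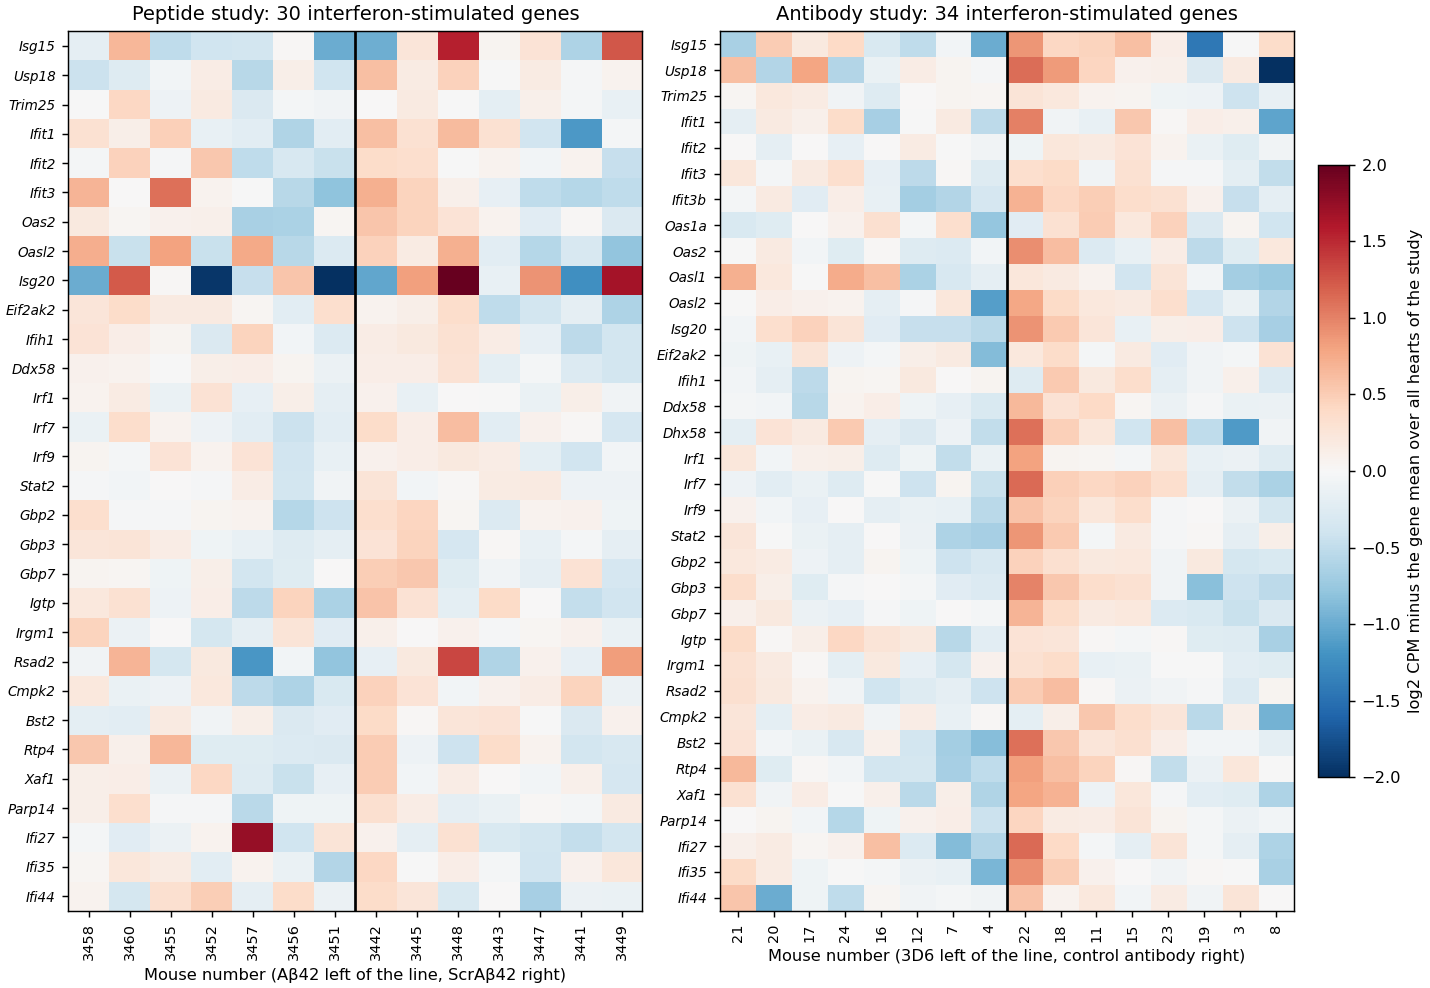
Level of each tested interferon-stimulated gene (rows) in each heart (columns) as log2 CPM minus the gene's mean over the hearts of that study, for 30 genes in the peptide study (left) and 34 in the antibody study (right), with the treated group left of the black line and hearts ordered by the mean of the members. Isg20 and Isg15 stand high in ScrAbeta42_3448 and ScrAbeta42_3449, and control-antibody mice 22 and 18 are high across most rows while 3D6 mouse 4 and control mouse 8 are low.

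The second question was whether neutralising Aβ with 3D6 altered the same genes. No member passed an adjusted p of 0.05 here either, by edgeR or DESeq2, the smallest adjusted p being 0.946, and 0.0% of all 12274 genes passed. At an unadjusted p under 0.05, 5 members (14.7%) were lower with 3D6, against 2.32% of all genes, and 0 were higher, against 1.32% of all genes. These 5 were Bst2, Ifit3b, Irf7, Stat2 and Irf9, and DESeq2 also put 5 members under that limit. A negative log2 fold change was found for 29 of 34 members (85.3%), against 52.6% of all genes, with a median of -0.20 beside -0.0098 over all genes. The groups overlapped for every member tested, and 0.0% of all genes had groups that did not. Without control-antibody mice 18 and 22, which had the highest member levels, 0 members were under an unadjusted p of 0.05. Of all genes, 1.76% were then lower and 1.99% higher at that limit. In that setting 20 members were negative and the members' median was -0.03.

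The transcription factors carried 3 of the 5. Irf7 ran from 9.43 to 13.4 CPM (median 11.4) in the 8 3D6 hearts and from 8.19 to 28.5 CPM (median 16.8) in the 8 control hearts. All 8 treated hearts were below the control median, while control hearts were both the lowest and the highest of the study. The log2 fold change was -0.48 (SE 0.20, unadjusted p = 0.0263, adjusted p = 0.946 in edgeR). Irf9 ran from 7.67 to 12.1 CPM (median 10.2) and from 8.77 to 17 CPM (median 12.3), a log2 fold change of -0.31 (SE 0.13, unadjusted p = 0.0268, adjusted p = 0.946), again with 8 of 8 treated hearts below the control median. Stat2 ran from 10.5 to 20.0 CPM (median 15.5) and from 14.8 to 31.4 CPM (median 17.7), a log2 fold change of -0.39 (SE 0.16, unadjusted p = 0.0252, adjusted p = 0.946). STAT2 and IRF9 are partners of the same DNA-binding complex, and IRF7 is made from one of its targets. Irf1, the factor induced mainly by type II interferon, had a log2 fold change of -0.17 (SE 0.14). Irf9 overlaps Rnf31 on the same strand, so its counts are the less certain. Irf7 overlaps Phrf1 on the opposite strand. The libraries were stranded, but whether reads were counted by strand is not stated. Without control mouse 22 alone, the edgeR test gave Irf7 an unadjusted p of 0.0827, Irf9 one of 0.0644, Stat2 0.0686 and Ifit3b 0.0525, and their log2 fold changes were -0.30, -0.24, -0.26 and -0.40.

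Bst2 had the lowest log2 fold change of the 34 members, -0.53 (SE 0.19, unadjusted p = 0.0109, adjusted p = 0.946 in edgeR). It ran from 6.07 to 13.7 CPM (median 9.57) with 3D6 and from 9.80 to 24.4 CPM (median 12.9) with the control antibody, and 7 of 8 treated hearts were below the control median. Its unadjusted p in edgeR was 0.0285 without control mouse 22 and 0.0784 without mice 18 and 22. Among the IFIT genes all 4 were negative. Ifit3b ran from 1.58 to 3.09 CPM (median 2.33) and from 1.87 to 4.56 CPM (median 3.45), a log2 fold change of -0.49 (SE 0.20, unadjusted p = 0.0231, adjusted p = 0.946), with 8 of 8 treated hearts below the control median. Ifit3, its near-copy, ran from 5.12 to 9.49 CPM (median 7.47) and from 5.26 to 9.85 CPM (median 7.34), with a log2 fold change of -0.06 (SE 0.15). The pair shares 61.8% of the 31-base words of Ifit3 and 54.1% of those of Ifit3b, so the split of reads between them is uncertain. Their sum was 9.82 ± 1.85 CPM with 3D6 and 11.1 ± 2.34 CPM with the control antibody (SD, n = 8 each).

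The other roles had mostly negative values, with overlapping groups. Isg15 ran from 0.958 to 3.23 CPM (median 1.93) with 3D6 and from 0.638 to 4.28 CPM (median 2.97) with the control antibody, a log2 fold change of -0.44 (SE 0.29, unadjusted p = 0.150). Usp18 ran from 0.985 to 3.00 CPM (median 1.65) against 0 to 3.85 CPM (median 1.82), a log2 fold change of -0.18 (SE 0.40). The low counts of this gene leave that value imprecise. Of 6 tested synthetases and RNA-decay genes 5 were negative, the exception being Oasl1 at 0.35 (SE 0.26), the highest of all members, with 0.975 to 2.98 CPM (median 1.81) against 0.877 to 2.04 CPM (median 1.68). All 3 sensors were negative, with Ddx58 the lowest at -0.27 (SE 0.13, unadjusted p = 0.0562). Gbp2 ran from 8.62 to 13.5 CPM (median 10.8) and from 9.04 to 16.1 CPM (median 13.2), a log2 fold change of -0.18 (SE 0.13). The GTPase Igtp was among the 3 highest members at 0.16 (SE 0.15), with 6.92 to 13.7 CPM (median 11.5) against 6.43 to 12.4 (median 10.2), and Trim25 was the third at 0.03 (SE 0.10), with 19.6 to 27.3 CPM (median 24.1) against 17.6 to 28.4 (median 23.3). Of the 9 other effectors 8 were negative, and Cmpk2, at 0.02 (SE 0.17), was the exception.

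The treatments were designed to act on Aβ42 in opposite directions. In the paper, Aβ42 injection raised plasma Aβ42, whereas 3D6 lowered its free but not its total plasma level. By the methods the antibody mice, unlike the peptide mice, were on a high-fat diet. With these limits, the members' values from the 2 studies, which share no mice, can be set side by side. Of 30 members tested in both, 16 were negative in both and 1, Trim25, was positive in both. Opposite signs were found for 13, of which 10 were higher with Aβ42 and lower with 3D6, and 3 were lower with Aβ42 and higher with 3D6. These counts were not set against all genes, and agreement between the studies was not tested. Usp18 and Cmpk2, the 2 members under an unadjusted p of 0.05 in the peptide study, had values of -0.18 and 0.02 in the antibody study. Of the 5 in the antibody study, Bst2, Irf7 and Stat2 were negative with Aβ42 too, Irf9 was at 0.03 and Ifit3b was not tested.

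**Figure D2:**
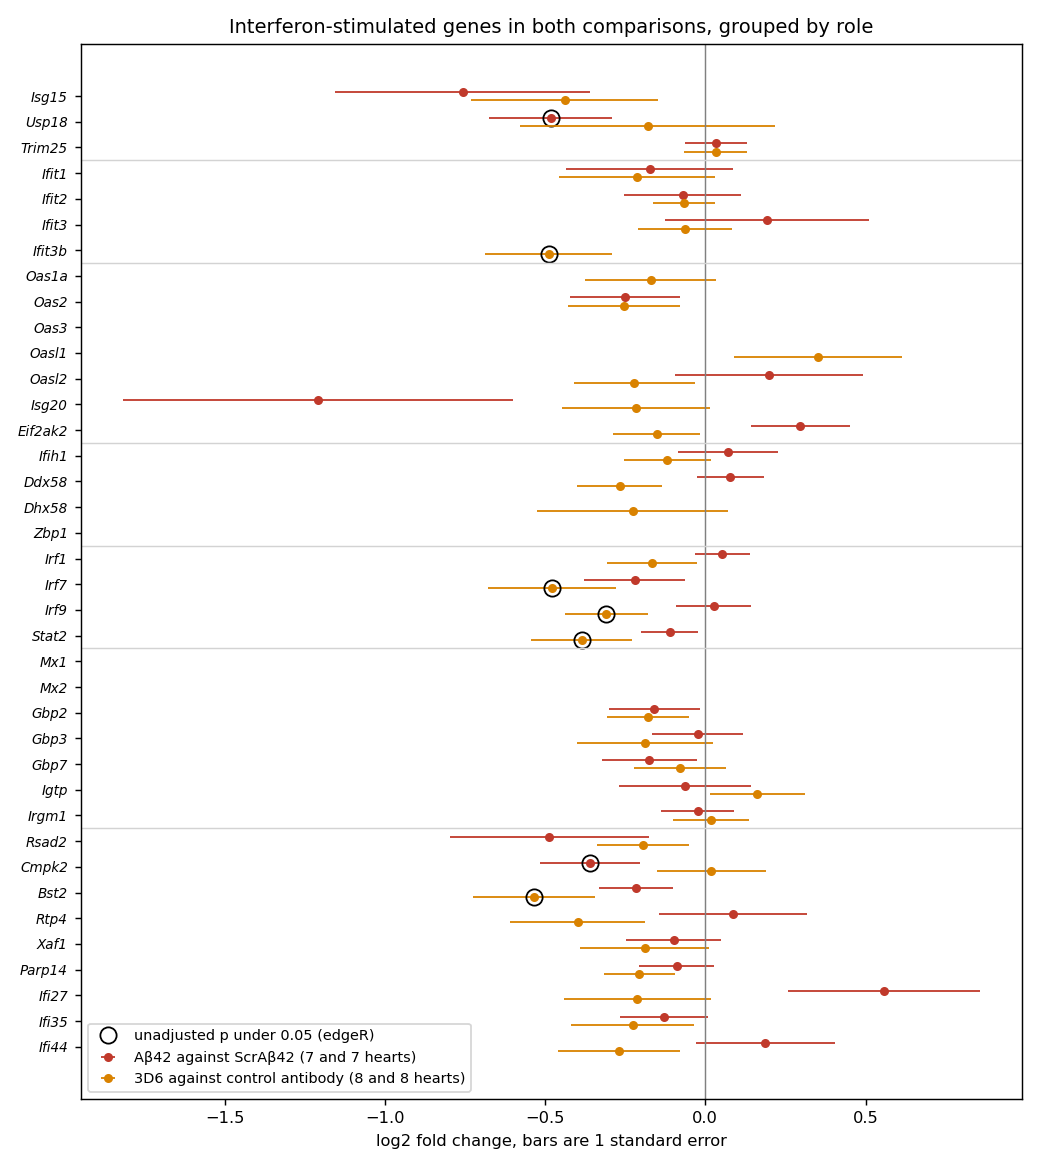
Log2 fold change (x axis) of each interferon-stimulated gene (y axis) for Aβ42 relative to ScrAβ42 and for 3D6 relative to the control antibody, with bars of 1 standard error from edgeR. Most antibody-study points lie left of 0, with a median of -0.20, Isg20 and Isg15 reach furthest left for Aβ42 at -1.21 and -0.76, and no point has an adjusted p under 0.05.

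In the peptide study, Isg20 and Isg15 followed the content of red blood cell transcripts. A red cell score was made from the adult globin genes Hba-a1 and Hbb-bs and the haem synthesis gene Alas2, and the slope of each gene on it was fitted in edgeR with the group in the model. Isg20 had a slope of 1.35 on the log2 scale per SD of the score (SE 0.10, adjusted p = 1.827e-06) and Isg15 one of 0.77 (SE 0.12, adjusted p = 0.009461), ranking 9 and 17 by p among all 11985 genes. These 2 of 30 members (6.67%) compare with 0.217% of all genes that had a positive slope past the adjusted threshold. The heart ScrAbeta42_3448 had Hbb-bs at 9053 CPM, Isg20 at 92.5 and Isg15 at 9.88, and ScrAbeta42_3449 had 5590, 46.7 and 7.94. The heart Abeta42_3451, at the other end, had 331, 3.36 and 1.38. Hbb-bs itself was 1245 ± 944 CPM with Aβ42 and 3212 ± 3174 CPM with ScrAβ42 (SD, n = 7 each), a log2 fold change of -1.37 (SE 0.67, unadjusted p = 0.0572), and the summed red cell genes ran from 446 to 3980 and from 627 to 12550 CPM.

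The red cell genes thus had negative log2 fold changes, as Isg20 and Isg15 did, and the 2 members were fitted again with the red cell score as a covariate. This gave Isg20 a value of -0.07 (unadjusted p = 0.726 in edgeR) and Isg15 one of -0.04 (unadjusted p = 0.867), while Usp18 (-0.45, unadjusted p = 0.0491) and Cmpk2 (-0.48, unadjusted p = 0.00451) were still under 0.05. Without ScrAbeta42_3448 and ScrAbeta42_3449, the log2 fold change of Isg20 was -0.23 (unadjusted p = 0.676 in edgeR) in place of -1.21. Its slope was then 1.07 (adjusted p = 0.0004497), whereas that of Isg15 was 0.47 with an adjusted p of 1.0, so only 1 member remained, against 0.0921% of all genes. Isg15 was also above the threshold when ScrAbeta42_3441, ScrAbeta42_3442 or ScrAbeta42_3448 was left out alone (adjusted p = 0.0602, 0.0776 and 0.114). Rsad2 had a slope of 0.43 (SE 0.13) that did not pass, at an adjusted p of 0.9998, and the median slope of the 30 members was -0.0051. Oasl2 was the 1 member of 30 with a positive slope past the threshold on the atrial score (0.54, SE 0.11), against 11.6% of all genes. Its slope on a score of macrophage markers, 0.48 (SE 0.09, adjusted p = 0.004456 in edgeR), was past the threshold too. Ifi27 was the 1 member with a negative slope past it on the mitochondrial share (-0.43, SE 0.09), against 10.1%.

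**Figure D3:**
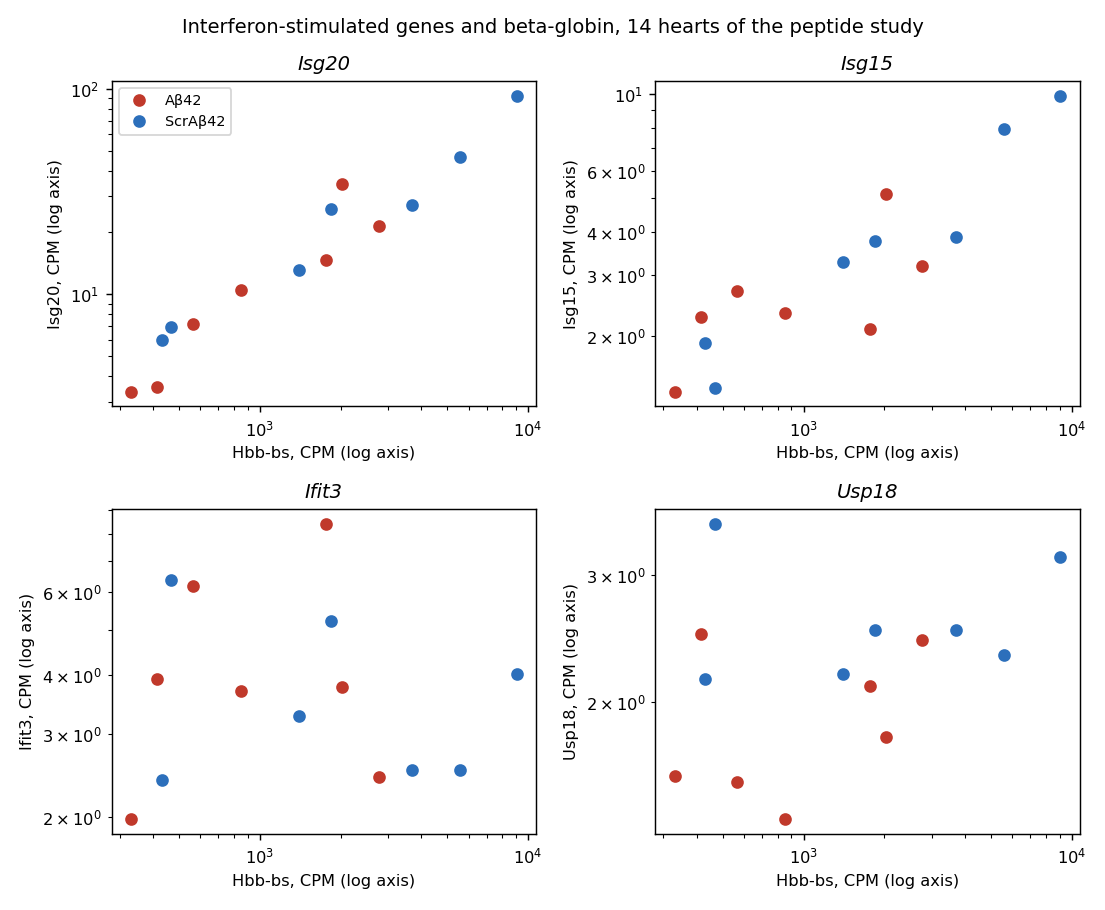
Levels of Isg20, Isg15, Ifit3 and Usp18 (y axis, CPM on a log axis) against the level of the globin gene Hbb-bs (x axis, CPM on a log axis) in the 14 hearts of the peptide study, one point per heart coloured by group. Isg20 goes from 3.36 CPM in the heart with 331 CPM of Hbb-bs to 92.5 CPM in the heart with 9053, and Ifit3 and Usp18 show no such order.

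In the antibody study, the members varied with the share of counts from the mitochondrial genome, which ran from 25.9% to 37.8% of all counts. With the group in the model, 25 of 34 members (73.5%) had a negative slope on this share at an adjusted p under 0.05, against 21.4% of all genes, and 0 had a positive one, against 21.5% of all genes. The median slope was -0.23 on the log2 scale per SD of the share, beside -0.0124 over all genes. Irf7 had a slope of -0.38 (SE 0.06, adjusted p = 0.0001401) and Bst2 one of -0.34 (SE 0.06, adjusted p = 0.0003159). The values of Ifit3b, Stat2 and Irf9 were -0.29, -0.24 and -0.24, each past the adjusted threshold, while Isg15 at -0.27 was not (adjusted p = 0.124). A share of the total is tied to the values of the other genes by construction, and with the mitochondrial genes taken out of the table before scaling the slope of Irf7 was -0.38 and 24 members passed.

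Control hearts lay at both ends of the order. Control-antibody mouse 22 had the lowest mitochondrial share, 25.9%, and the highest mean of the members, with 30 of 34 above the study median. Control mouse 18 followed at 28.7%, with 32 of 34 above the median. 3D6 mouse 4 (37.8%) and control mouse 8 (37.7%) had the highest shares and the lowest member means, and mouse 4 had only 4 of 34 members above the median. Without control mouse 22, 14 members had a negative slope, against 12.7% of all genes, and without mice 18 and 22 it was 10, against 9.93%. Irf7, Irf9 and Bst2 were then past the threshold and Stat2 (adjusted p = 0.222) and Ifit3b (adjusted p = 0.0699) were not. The share itself had a median of 33.2% with 3D6 and 31.2% with the control antibody, and it was also fitted as a covariate. With it 18 of 34 members were negative and their median was -0.02. Of the 5 lower members only Bst2 was still under an unadjusted p of 0.05 (-0.29, unadjusted p = 0.0320 in edgeR), against 2.13% of all genes lower. Oasl1 (0.60, unadjusted p = 0.0257) and Igtp (0.31, unadjusted p = 0.0202) came under it as higher with 3D6, against 2.31% of all genes higher.

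Marker scores of other cells went with the members across the same hearts. A positive slope on the red cell score was found for 12 of 34 members (35.3%), against 9.93% of all genes, on the macrophage score for 8 of 34 (23.5%), against 11.8%, and on the atrial score for 0, against 0.733%. The 8 with a macrophage slope were Oasl1, Oasl2, Irf1, Irf7, Bst2, Xaf1, Ifi27 and Ifi35. The 8 macrophage markers summed to 115 to 195 CPM with 3D6 and 129 to 225 CPM with the control antibody, 7 of 8 had a negative log2 fold change, and none was at 0 counts or under an unadjusted p of 0.05. The 5 endothelial markers were all negative with 3D6, with Pecam1 at -0.23 (unadjusted p = 0.0134) and Emcn at -0.25 (unadjusted p = 0.0176), and summed to 556 to 704 CPM against 610 to 820 CPM. In the peptide study 3 of the 5 endothelial markers were negative and 2 positive with Aβ42, with a median of -0.10. Emcn was the 1 under an unadjusted p of 0.05 there, at 0.34 (unadjusted p = 0.0234 in edgeR). Macrophage markers summed to 250 to 418 CPM with Aβ42 and 228 to 570 CPM with ScrAβ42. A score over immune cell markers was also fitted as a covariate. Only markers that passed the count filter entered it, 8 of 8 macrophage and 1 of 4 plasmacytoid dendritic cell markers. With this score, Bst2 was the 1 member lower with 3D6 at an unadjusted p under 0.05 (-0.34, unadjusted p = 0.0158 in edgeR), against 1.83% of all genes. Oasl1 and Igtp were the 2 higher, against 1.19%. With the red cell score as a covariate the same 5 members were lower as without it, against 2.16%. The part of endothelial cells in the members' values was not tested. No marker had an adjusted p under 0.05 in edgeR in either comparison.

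**Figure D4:**
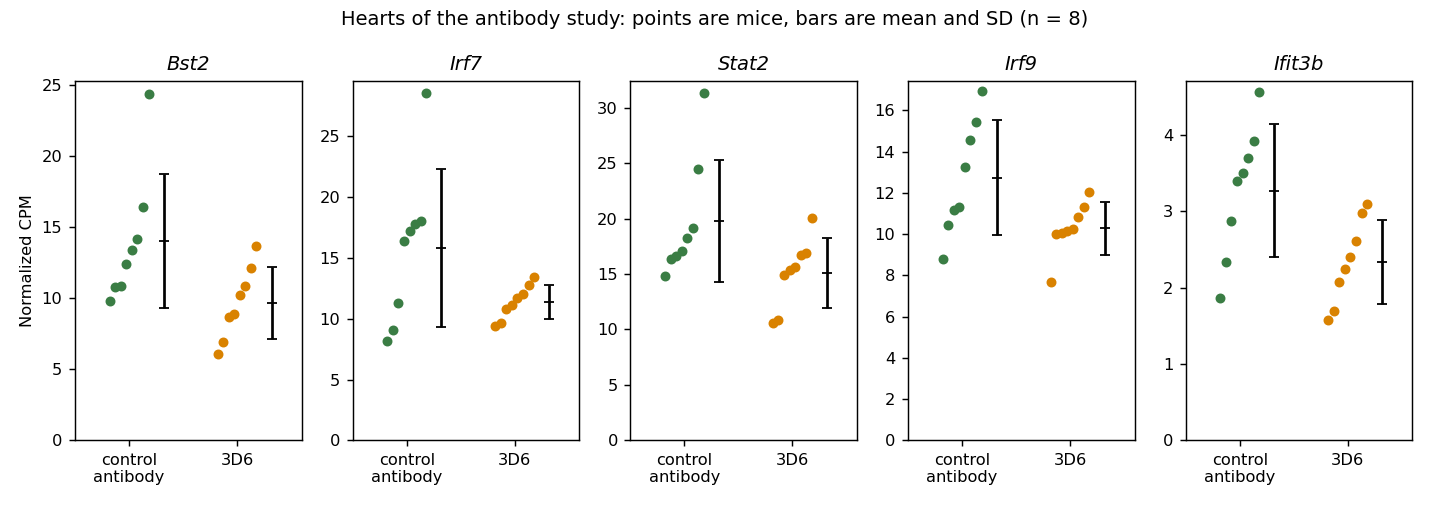
Level (y axis, CPM) of the 5 members under an unadjusted p of 0.05 in the 16 hearts of the antibody study, one point per heart, with the mean and SD of each group of 8. The highest heart of each panel is a control heart, with mouse 22 at 28.5 CPM for Irf7 and 24.4 CPM for Bst2, and the groups overlap in every panel.

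**Figure D5:**
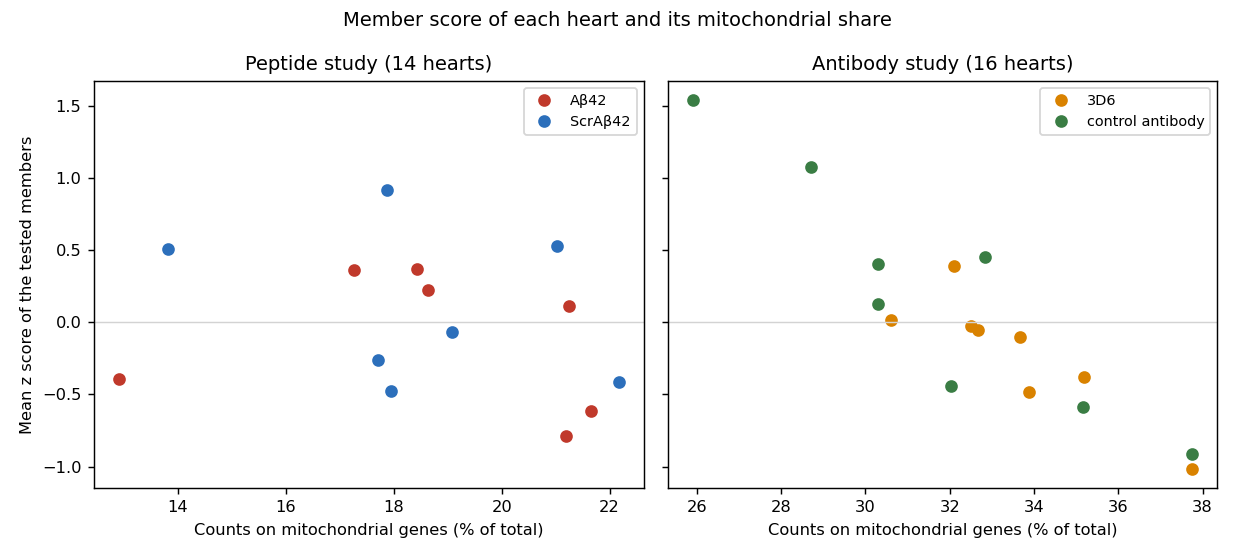
Mean of the members' standardised levels (y axis, SD units) against the percentage of counts from mitochondrial genes (x axis) in each heart, peptide study left and antibody study right, coloured by group. In the antibody study the members fall from 1.54 at a share of 25.9% to -1.02 at 37.8%, and in the peptide study the hearts show no such order between 12.9% and 22.2%.

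The members varied together from heart to heart. After the group means were subtracted, the median Pearson r over 435 pairs of members across the 14 hearts of the peptide study was 0.265 (Spearman rho 0.257), and 79.1% of pairs were positive. Over 561 pairs and 16 hearts in the antibody study it was 0.484 (rho 0.441), with 92.9% of pairs positive. The median over all pairs of tested genes was 0.0 in both studies. These pairs share hearts, libraries and depth, and the values are a description only. Without the 2 hearts farthest from the median, the values became 0.183 and 0.326 in that order, and with the mitochondrial share regressed out they were 0.290 and 0.143. In the antibody study the members closest to the mean of the others were Irf9 (r = 0.937), Bst2 (0.905) and Gbp3 (0.903), and the least close was Ifih1 (0.0803). In the peptide study they were Ifit3 (0.848), Oas2 (0.743) and Ifit1 (0.726), while Isg15 (-0.0279), Ifi27 (-0.0223) and Isg20 (0.0384) did not follow the rest.

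Outside the members, the 10 genes whose deviations were most like the members' mean in both studies, ranked by the smaller r over 14 and 16 hearts, were H2-D1 (0.824 and 0.920), H2-Q7, Uba7 (0.758 and 0.874), B2m (0.753 and 0.865), H2-Q6, Slfn2, Psmb8, Nrros, Sp100 and H2-Q4. H2-D1 encodes a class I antigen-presenting chain, B2m the light chain that pairs with it, Psmb8 a subunit of the immunoproteasome and Uba7 the enzyme that activates ISG15. The H2-Q genes are near-copies of one another, so their reads may be split uncertainly. None of the 10 was under an unadjusted p of 0.05 in either comparison.

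In the rest of the pathway, too, no gene passed the adjusted test in edgeR. At an unadjusted p under 0.05, 2.92% of all genes were lower and 3.59% higher in the peptide study. In the antibody study 2.32% of all genes were lower and 1.32% higher. Of the 15 tested receptor and JAK-STAT genes, 0 were under an unadjusted p of 0.05 with Aβ42 and 1 was with 3D6, Ifnar1, a chain of the type I receptor, at -0.20 (SE 0.09, unadjusted p = 0.0287). Of the genes that lead to interferon production, 17 and 16 were tested, with 1 under that limit in the peptide study, Irf2, a repressor that competes with IRF1, at -0.26 (SE 0.08, unadjusted p = 0.00742), and 0 in the antibody study. Of 55 further interferon-induced genes, 43 were tested in the peptide study, 26 negative and 17 positive with a median of -0.07. Of all genes 49.5% were negative there. In the antibody study 44 were tested, 36 negative and 8 positive with a median of -0.13, where 52.6% of all genes were negative. The 3 under an unadjusted p of 0.05 with Aβ42 were the immunity-related GTPase Iigp1 at -0.64 (SE 0.21, unadjusted p = 0.00877), Dtx3l at -0.32 (unadjusted p = 0.0285) and Znfx1 at -0.12 (unadjusted p = 0.0294), and all were lower. Iigp1 was 25.6 ± 5.07 CPM with Aβ42 and 39.8 ± 14.7 CPM with ScrAβ42 (SD, n = 7 each), and its value with 3D6 was 0.41 (SE 0.19, unadjusted p = 0.0503). With 3D6 there were 2, also lower, Ddx60 at -0.85 (SE 0.31, unadjusted p = 0.0131) and the surface protein Ly6e at -0.27 (SE 0.13, unadjusted p = 0.0421).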

How the data were processed

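Per the labels and the study's methods, the authors trimmed reads from stranded total RNA libraries and mapped them to the GENCODE vM24 mouse transcriptome (GRCm38) with Salmon, whose version is not given in the sources used here. They deposited whole-number counts per gene for the peptide study and estimated counts per transcript for the antibody study. Here the transcripts were summed to genes by GENCODE vM21, which lists 99.21% of them, and rounded. Unlisted transcripts, with 0.38% of the counts, stayed as rows of their own. 1 column that matched no labelled sample was not used. Hearts of a group differed beyond sampling noise (smallest chi-square per degree of freedom 3.50).

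Each study was fitted alone in edgeR 4.0.16 (R 4.3.3) with TMM scaling and the two-sided quasi-likelihood F test on genes averaging 10 or more counts a heart, and p-values were adjusted by Benjamini-Hochberg over all genes tested. Log2 CPM used a prior count of 2. Slopes on marker scores and on the mitochondrial share came from the same model with the group as a term. The script was tested on simulated data. The alternatives were DESeq2 1.42.0, limma 3.58.1 (voom), other scalings and filters, covariates and leaving hearts out. P-values set a group difference or a slope against the spread between mice of a group.

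The members and lists were chosen with earlier results of these data known. Per-heart ranges are given for Isg15, Ifit3, Irf7, Irf9, Stat2, Usp18, Bst2 and Gbp2, for members with an unadjusted p under 0.05 and for the 3 highest and 3 lowest log2 fold changes of each study. From other lists at most 5 genes with the smallest unadjusted p under 0.05 are named, and likeness was ranked by the smaller r of the 2 studies. Single hearts were named after their values were seen.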

Additional observations from a re-analysis of the deposited data

Results flagged for a closer look

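In 128 groups of 7 or 8 hearts, 1 for each member, study and treatment, the highest or lowest heart stood apart from the others by Dixon's 95% criterion in 9, where chance gives about 1 in 20. In the peptide study, Stat2 was 16.7 CPM in Abeta42_3456 with the next heart at 20.5, and Ifi27 was 75.4 CPM in Abeta42_3457 with the next at 26.9. In the antibody study, 4 of the 9 came from 3D6 mouse 4, which was the lowest of its group for Oasl2 at 3.99 CPM (next 7.86), Eif2ak2 at 4.95 (next 8.3), Irf9 at 7.67 (next 9.99) and Ifi35 at 4.79 (next 8.33). In control-antibody hearts, Isg15 was lowest in mouse 19 at 0.638 CPM (next 2.18), Usp18 was at 0.0 in mouse 8 (next 1.28), and Irf1 was highest in mouse 22 at 30.1 CPM (next 20.2). Usp18 and Isg15 rest on few counts, so their lowest hearts carry a wide counting error.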

How the results depend on the processing

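In both studies 0 members passed an adjusted p of 0.05 under every alternative tried, and 0 members past an unadjusted p of 0.05 were past it in the other direction under an alternative. The count under an unadjusted p of 0.05, 2 in the peptide study, was 1 with DESeq2, with 10 counts required in every heart or with scaling to the total, 4 with the atrial covariate (Usp18 and Cmpk2 not among them), and 0 to 5 with 1 heart left out (0 without Abeta42_3457, 1 without Abeta42_3451 or ScrAbeta42_3445, 4 without ScrAbeta42_3441, 5 without Abeta42_3460, and without ScrAbeta42_3442 the 2 were Isg15 and Isg20). The members called in these named settings were all lower. The share of all genes lower in them ran from 2.34% (scaling to the total) to 4.83% (atrial covariate). Other settings also called members higher with Aβ42. Eif2ak2 was called with the immune covariate, without ScrAbeta42_3448, and without ScrAbeta42_3448 and ScrAbeta42_3449. Ifi27 was called with the mitochondrial covariate, and both were without Abeta42_3456. In these settings 4.47% to 6.65% of all genes were higher. The count of 5 in the antibody study was 3 with the immune or the mitochondrial covariate (Bst2 lower, Oasl1 and Igtp higher), 0 without control mice 18 and 22, and 1 to 7 with 1 heart left out (1 without control mouse 22, 3 without control mouse 18 or 3D6 mouse 4). In these named settings 1.29% to 2.13% of all genes were lower and 0.788% to 2.31% higher at that limit. Of 34 antibody-study members, 29 were negative, and 18 with the mitochondrial covariate. Their median of -0.20 was -0.02 with that covariate, -0.05 with the immune covariate, -0.03 without mice 18 and 22, and -0.09 without mouse 22. The median pairwise r of 0.265 was 0.183 without the 2 farthest hearts, and that of 0.484 was 0.326 without them and 0.143 with the mitochondrial share regressed out. The 2 members with a red cell slope were 1 without ScrAbeta42_3448 and ScrAbeta42_3449 and 1 to 2 with 1 heart left out. The 25 with a negative mitochondrial slope were 10 without control mice 18 and 22 and 14 to 26 with 1 heart left out. The cause of these shifts was not tested. No scaling moved the median of all genes by over 0.1 on the log2 scale. Of the single-member values, 739 in the peptide study stayed on their side of an unadjusted p of 0.05, 15 rose above it and 22 came under it, with 908, 24 and 15 in the other study. Among those that stayed, 31 values of 10 members and 48 of 15 members turned sign at a p over 0.05. No paired analysis was possible because each mouse number occurs in 1 group only. With totals of 4478991 to 8310478 counts, members under about 10 counts per heart could not be tested.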

Other observations

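The antibody table lists transcripts, so the members can be seen below the level of the gene. The most counted transcript held at least 90% of the counts for Isg15, Rsad2, Cmpk2, Bst2, Stat2 and Gbp2. It held 39.6% for Irf9, 49.2% for Irf7, 48.7% for Ddx58, 35.5% for Xaf1 and 45.2% for Ifi27, whose counts were spread over several transcript models. For Irf9 that transcript had 23.6 ± 22.6 counts in 3D6 hearts and 40.9 ± 27.8 in control hearts (SD, n = 8 each, not scaled for depth), with no test of the difference. Salmon divides reads between models that share exons, so such values are less certain than the gene sums used in the comparisons.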
